A study of Mus musculus with 10 samples.

Results

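The comparison described here is that of the cerebellum with the cerebral cortex in control mice. It uses 6 of the 10 libraries of the series, 3 from cerebellum and 3 from cortex, which came from 3 of its 5 mice. Members were chosen by the label alone, as every library named as a control, and the 2 tissues of a mouse were paired by the animal number in the library name. The control mice were 1 year of age, and the study's methods place them on a C57BL/6J background. Controls 1 and 2 were labelled Het, that is, they carried 1 copy of a CRISPR-made frameshift deletion in Snx14, and control 3 was labelled WT, so the controls were not of 1 genotype. Bulk RNA of dissected, frozen tissue was sequenced, with the cell type labelled as a mix.

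The cerebellum and the cortex are built from different neurons. Cerebellar granule cells are small glutamatergic neurons that make up most of the neurons of the brain, and their parallel fibers drive the GABAergic Purkinje cells, the sole output of the cerebellar cortex. The cerebral cortex holds glutamatergic projection neurons in layers together with GABAergic interneurons that come from the ventral forebrain. The transcription factors that divide the neural tube along its length in the embryo are partly kept on in the adult neurons of each region, and each class of neuron carries its own set of channels, receptors and transporters.

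Library totals ran from 17094655 to 20903247 gene counts. Log2 levels correlated at 0.982 to 0.993 between libraries of the same tissue and at 0.861 to 0.871 between tissues, and the first principal component of the 500 most variable genes separated the tissues with 95.7% of the variance. Mouse 2 stood apart from mice 1 and 3 on the second component in both tissues, which held 2.93% of the variance. The labelled tissues were checked with marker lists. Summed granule cell markers (16 genes) reached 7305, 7701 and 6511 CPM (counts scaled to the library total) in cerebellum and 2222, 1732 and 2132 CPM in cortex, and summed cortical excitatory neuron markers (19 genes) 841, 793 and 765 CPM and 8576, 5642 and 8310 CPM. Wherever 3 values are given for a tissue, they are those of mice 1, 2 and 3 in this order, and means are followed by the SD over these 3 libraries. Markers of neighbouring tissue were measured as well. The 11 choroid plexus markers summed to 4499, 1579 and 5021 CPM in cerebellum and 293, 297 and 257 CPM in cortex. The 16 striatum markers summed to 2439, 5203 and 2251 CPM in cortex and 536, 486 and 534 CPM in cerebellum. Among the cortex libraries, that of mouse 2 thus had the highest striatal sum and the lowest excitatory sum. Single excitatory markers did not all follow this sum. Camk2a, Slc17a7, Stx1a and Cux2 were lowest in that library, Nrgn and Tbr1 were not, and Neurod6 and Bcl11b were highest in it. The part of this neighbouring tissue in the differences below was not tested. Values given without the cortex library of mouse 2 do not test it either. The cortex libraries of mice 1 and 3 also had striatal sums above those of every cerebellum library. Snx14 itself was measured at 42.5, 39.5 and 73 CPM in cerebellum and 34.2, 34.8 and 50.7 CPM in cortex, with the WT mouse above both Het mice in each tissue, and its tissue difference was below the size needed for a call (log2 difference 0.34, SE 0.086, adjusted p = 0.00621).

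Of 19416 genes tested, 3882 (20.0%) were called higher in cerebellum and 4293 (22.1%) higher in cortex. A call needed an adjusted p under 0.05 in edgeR's quasi-likelihood F test with the animal as a block, and an absolute log2 fold change over 0.5. Log2 differences are fitted values of cerebellum against cortex with their standard error (SE), so positive values mean higher in cerebellum. The 3 libraries of a tissue did not overlap with those of the other tissue for 7834 of the 8175 genes called, against 61.8% of all genes tested, and 8131 had the same direction in all 3 mice. Differences of over 4-fold were called for 770 genes (3.97%) in favour of cerebellum and 1347 (6.94%) in favour of cortex, and 227 and 497 of these passed 16-fold. A further 5321 genes (27.4%) were alike, meaning that the 95% interval of the log2 difference lay within 0.5 on either side of 0, and 5920 were neither called nor alike. List counts below without a share beside them are to be read against 20.0%, 22.1% and 27.4%, and statements of no overlap against 61.8%. In bulk tissue, a lower level of a gene can come from fewer cells of a type or from less RNA per cell, and these cannot be told apart here.

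**Figure D1:**
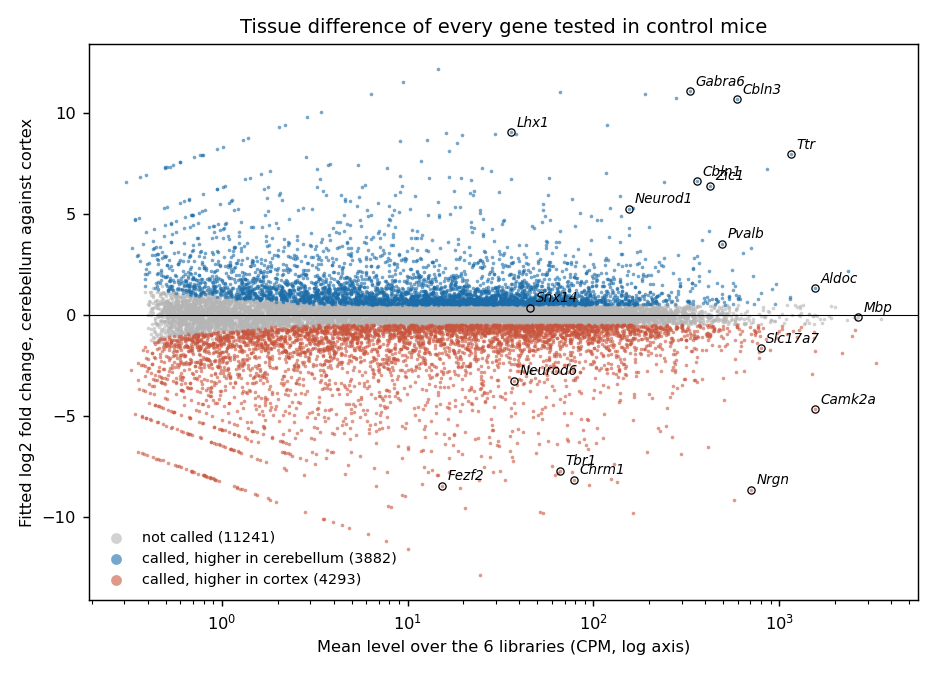
Each point is 1 of the 19416 genes tested, with its mean level over the 6 control libraries (CPM, log axis) against its fitted log2 fold change of cerebellum against cortex. The 3882 genes called higher in cerebellum and the 4293 called higher in cortex reach past 10 on either side of 0, and the slanted lines of points at low levels are genes with 0 or a few counts in 1 tissue.

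The genes called higher in cerebellum made up 18.0 to 19.9% of the summed TPM, a unit that also scales by gene length, of each cerebellum library, against 6.65 to 7.08% in cortex. The genes called higher in cortex made up 33.2 to 36.5% of cortex TPM and 14.1 to 14.8% of cerebellum TPM. Protein-coding genes were 77.5% of the genes tested, 79.1% of those higher in cerebellum, 77.3% of those higher in cortex and 92.7% of those alike. Coding genes that span over 100 kb were 15.4% of the coding genes tested. They were 18.2% of the coding genes higher in cerebellum, 23.2% of those higher in cortex and 11.2% of those alike.

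Most of the transcription factors listed were called, 45 of 100 higher in cerebellum and 46 higher in cortex. Of 42 regional patterning factors tested, 24 were called higher in cerebellum and 17 higher in cortex, against 20.0% and 22.1% of all genes, 23 and 15 of them by over 4-fold, and the median log2 difference of the list was 3.25 beside 0.02 for all genes. En2, the engrailed homeobox factor of the midbrain-hindbrain boundary (ENSMUSG00000039095.8, chr5:28165694-28172166 in GRCm38), was measured at 115, 110 and 117 CPM in cerebellum and 1.07, 1.46 and 0.551 CPM in cortex (log2 difference 6.75, SE 0.17, adjusted p = 1.02e-09). Zic1, a zinc finger factor of granule cells and their precursors, reached 864, 854 and 784 CPM in cerebellum and 13.2, 8.83 and 8.33 CPM in cortex (log2 difference 6.38, SE 0.13, adjusted p = 3.2e-10). Lhx1 and Lhx5, LIM homeobox factors of Purkinje cells, were at 78.8, 69.8 and 68.1 CPM and 25.5, 20.9 and 24.2 CPM in cerebellum and 0.179, 0.0504 and 0.184 CPM and 0.299, 0.0504 and 0 CPM in cortex. The cerebellum libraries were above all cortex libraries for each of these genes. Barhl2 and Tfap2b, which mark glutamatergic and GABAergic lineages of the hindbrain, differed by 6.78 (SE 0.29) and 6.70 (SE 0.28) on the log2 scale.

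On the cortical side, Tbr1, a T-box factor of deep-layer projection neurons, reached 0.51, 0.688 and 0.659 CPM in cerebellum and 136, 131 and 128 CPM in cortex (log2 difference -7.72, SE 0.12, adjusted p = 9.87e-11). Emx2, a homeobox factor of the dorsal telencephalon, had no read in any cerebellum library. With a floor of 3 counts per library, Emx2 was at least 67.4-fold higher in cortex. Eomes, the T-box factor of unipolar brush cells in the cerebellum, was higher in cerebellum (17.9 ± 2.21 against 0.27 ± 0.232 CPM, SD, n = 3), and Nr2f2, an orphan nuclear receptor of caudal interneurons, was the only patterning factor tested that was not called (17.6 ± 2.59 against 13.8 ± 3.21 CPM). Dlx1, Dlx2, Dlx5 and Dlx6, homeobox factors of GABAergic neurons of the ventral forebrain, and Meis2, a TALE homeobox factor, were called as well. Their fitted log2 differences were -7.08, -6.28, -7.39, -9.46 and -5.70. Dlx2, Dlx5 and Dlx6 had only 3, 2 and 1 reads over the cerebellum libraries. Their ratios of cortex to cerebellum were 87.86, 205.7 and 1014, with exact counting intervals of 29.67 to 429.3, 56.52 to 1706 and 181.5 to 40090. Striatal neurons also express Meis2, and it was highest in the cortex library of mouse 2 (156, 218 and 146 CPM). None of the 39 Hox genes, which pattern the body axis behind the cerebellum, had enough counts to be tested.

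**Figure D2:**
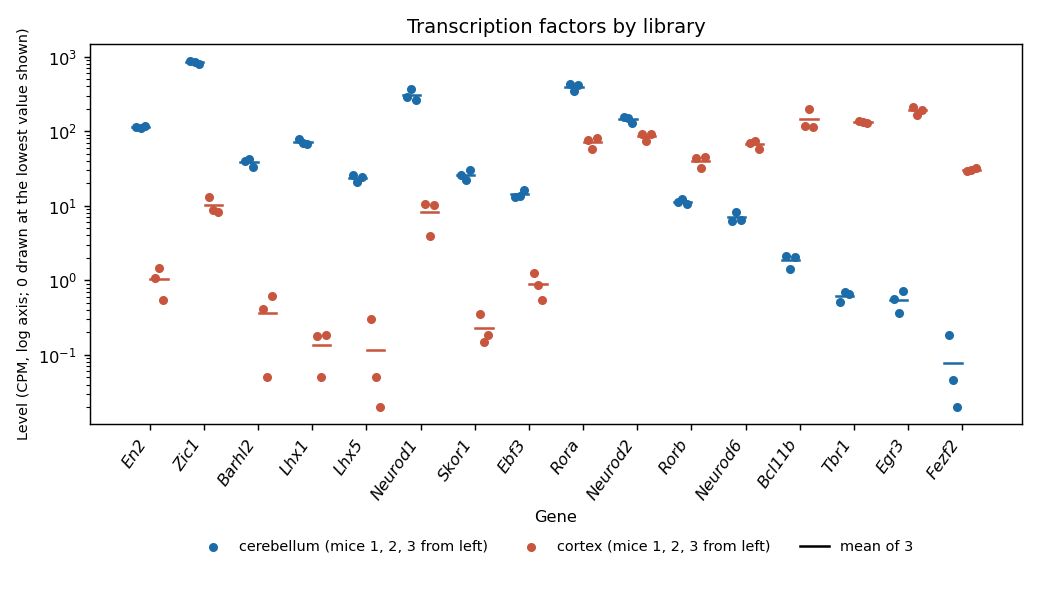
Level of 16 transcription factors in each control library (CPM, log axis), with cerebellum points in blue and cortex points in red, mice 1, 2 and 3 from left to right, and a bar at the mean of 3. The libraries of the 2 tissues do not overlap for any factor shown, and levels of 0 are drawn at the lower edge.

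Of 58 factors of neuronal identity and activity, 21 were called higher in cerebellum and 29 higher in cortex (median -0.57). Skor2, a corepressor of Purkinje cells, was at 13.6, 11 and 13.4 CPM in cerebellum and had no read in cortex, which made it at least 73.9-fold higher. Skor1, its paralog, differed by 6.78 (SE 0.22). Fezf2 and Bcl11b, which specify subcortical projection neurons, were higher in cortex, with log2 differences of -8.47 (SE 0.30) and -6.25 (SE 0.19). Bcl11b is also expressed in striatal neurons, and its level in the cortex library of mouse 2 (118, 198 and 115 CPM) was the highest of the 3.

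Related factors took different shares of their family in the 2 tissues. Among the NeuroD factors, basic helix-loop-helix proteins of glutamatergic neurons, Neurod1 held 69.2% ± 2.56 (SD, n = 3) of the summed TPM in cerebellum and 4.82% ± 2.13 in cortex. Neurod6 held 2.03% ± 0.165 and 50.9% ± 6.38, and Neurod2 28.8% ± 2.67 and 44% ± 4.44. Neurod1 was thus the main member in cerebellum, whereas Neurod6 and Neurod2 shared the cortical sum. Per gene, Neurod1 was measured at 289, 362 and 259.6 CPM in cerebellum and 10.5, 3.88 and 10.2 CPM in cortex (log2 difference 5.25, SE 0.28, adjusted p = 1.57e-07) and Neurod6 at 6.26, 8.26 and 6.43 CPM in cerebellum and 70.2, 74.7 and 58.4 CPM in cortex (log2 difference -3.28, SE 0.099, adjusted p = 2.54e-09). Among the ROR nuclear receptors, Rora, which Purkinje cells need to mature, held 78.5% ± 3.51 of the cerebellar and 56.8% ± 0.948 of the cortical sum, and Rorb, a factor of the layer that receives thalamic input, 2.71% ± 0.441 and 37.3% ± 1.2. Rora was also the larger member in cortex, at 15.4 ± 3.4 TPM beside 10.1 ± 2.31 TPM for Rorb. With 3 libraries against 3, the smallest p that an exact two-sided permutation test of a share can give without the pairing is 0.1. A permutation within mice cannot go as low, so the shares are given as values.

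Several genes that neuronal activity induces were higher in cortex. Egr3, an early growth response factor, was measured at 0.557, 0.367 and 0.709 CPM in cerebellum and 212, 165 and 194 CPM in cortex (log2 difference -8.44, SE 0.13, adjusted p = 9.87e-11). Npas4, Egr1, Junb and Nr4a1, which were named after their values were seen, had log2 differences of -3.06, -2.21, -1.60 and -1.84, all called, although the libraries of the 2 tissues overlapped for Nr4a1. Fos was not called (33.1 ± 28 against 32 ± 19.7 CPM) and varied widely between mice. Neurod2 (144 ± 14.8 against 85.6 ± 9.49 CPM) was higher in cerebellum although it stood on the list of cortical excitatory neurons.

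Of 16 granule cell markers, 14 were called higher in cerebellum and 1 higher in cortex (median 4.42). Gabra6, the GABA-A receptor subunit of granule cells (ENSMUSG00000020428.13, chr11:42306437-42321072 in GRCm38), was measured at 633, 710 and 642 CPM in cerebellum and 0.0597, 0.151 and 0.735 CPM in cortex (log2 difference 11.07, SE 0.26, adjusted p = 6.22e-10). Cbln3 and Cbln1 encode cerebellins, secreted proteins that link parallel fibers to Purkinje cells, and reached 1211, 1282 and 1065 CPM and 713, 789 and 636 CPM in cerebellum. In cortex they were at 0.358, 0.504 and 1.35 CPM and 7.52, 6.36 and 8.09 CPM, without overlap. Fat2, an atypical cadherin of granule cells, differed by 10.72 (SE 0.29). The marker higher in cortex was Slc17a7, the vesicular glutamate transporter of granule cells and of cortical neurons alike, at 392, 388 and 348 CPM in cerebellum and 1383, 946 and 1300 CPM in cortex (log2 difference -1.67, SE 0.12, adjusted p = 1.29e-06). The neuronal nuclear antigen gene Rbfox3 was alike (317 ± 23.9 against 323 ± 14.2 CPM, 95% interval -0.21 to 0.15).

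Sequences just before the annotated start are shown for 3 genes described above, Gabra6 and Cbln3 of granule cells and Neurod6 of cortical projection neurons, because a match to the same motif falls in each. The windows of Neurod1, Tbr1, Pcp2 and Zic1, which were searched as well, hold no match to it. They come from RefSeq promoter records on GRCm38.p6, read 5′ to 3′ on the strand of the gene, and run over the 250 bases before the start. Records matched 12709 of the 19416 genes tested. Capitals mark TTGGCA or its reverse complement TGCCAA, the core that nuclear factor I proteins bind, searched on both strands. The windows are chr11:42321073-42321322, chr14:55884257-55884506 and chr6:55681264-55681513, and each gene lies on the minus strand.
Gabra6: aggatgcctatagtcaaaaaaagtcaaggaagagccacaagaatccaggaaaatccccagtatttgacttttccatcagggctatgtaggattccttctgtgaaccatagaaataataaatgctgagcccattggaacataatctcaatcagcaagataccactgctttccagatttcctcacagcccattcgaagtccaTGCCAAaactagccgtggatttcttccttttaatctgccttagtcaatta
Cbln3: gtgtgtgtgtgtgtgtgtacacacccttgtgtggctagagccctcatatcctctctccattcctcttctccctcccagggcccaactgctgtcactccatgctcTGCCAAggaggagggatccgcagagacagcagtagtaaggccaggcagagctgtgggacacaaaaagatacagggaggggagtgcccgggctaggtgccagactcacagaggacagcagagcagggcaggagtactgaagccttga
Neurod6: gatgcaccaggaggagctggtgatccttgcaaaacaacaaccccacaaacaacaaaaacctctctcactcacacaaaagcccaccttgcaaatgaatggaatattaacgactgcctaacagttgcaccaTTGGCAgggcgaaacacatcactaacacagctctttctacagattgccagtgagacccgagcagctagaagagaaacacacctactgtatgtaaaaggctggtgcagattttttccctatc
Each window holds 1 such match, at 50, 146 and 121 bases before the start, and it is a description of letters only. In the full records, which add 50 bases after the start, the core was found in 11.6% of all 16248 promoters, in 15.7% of those of genes over 4-fold higher in cerebellum and in 12.9% of those over 4-fold higher in cortex. CAGATG, an E-box that NeuroD factors can bind, was found in 12.8%, 17.6% and 16.2%, and CAGCTG, another E-box, in 16.2%, 16.35% and 21.2%. AGGTCA, the core of many nuclear receptor sites including those of ROR proteins, was found in 12.8%, 16.7% and 12.7%. TATAAA, the TATA box, was found in 7.73%, 8.81% and 12.5%, and TGACGTCA, the cAMP response element, in 2.74%, 1.28% and 1.52%. None of these motifs contains another. The median GC content was 60% for all promoters, 56% for genes over 4-fold higher in cerebellum and 57.7% for those over 4-fold higher in cortex. Whether base composition accounts for these shares was not tested. The genes of the NFI proteins themselves were called higher in cerebellum. Nfia, Nfib, Nfic and Nfix, chosen after their values were seen, differed by 1.23, 0.56, 0.51 and 0.57 on the log2 scale. Nfib, Nfic and Nfix were just past the threshold of 0.5. Without the cortex library of mouse 2, Nfic (0.42) and Nfix (0.36) were not called. Without mouse 2 in both tissues, Nfib (0.485), Nfic (0.43) and Nfix (0.38) were not called. Nfic also lost its call with DESeq2's size factors and with DESeq2's own test (0.49 in each). Whether the levels of these genes bear on the motif shares was not tested.

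Of 26 Purkinje cell markers, 23 were called higher in cerebellum and 1 higher in cortex (median 3.18). Calb1, which encodes the calcium buffer calbindin, was measured at 1177, 1061 and 1179 CPM in cerebellum and 148, 121 and 144 CPM in cortex (log2 difference 3.05, SE 0.084, adjusted p = 1.59e-09). Pcp2, a modulator of G-protein signalling named after Purkinje cells, was at 441, 516 and 462 CPM in cerebellum and 5.02, 4.44 and 5.45 CPM in cortex (log2 difference 6.58, SE 0.12, adjusted p = 1.49e-10), with 51.5% of its exonic bases inside another gene. Ppp1r17, a phosphatase inhibitor that is a substrate of cGMP-dependent kinase, was at 237, 239 and 231 CPM in cerebellum and 0.239, 0.454 and 0.306 CPM in cortex. Car8 and Itpr1 were named after their values were seen. Car8, a carbonic anhydrase-related protein that binds the inositol trisphosphate receptor, reached 1710 CPM beside 11.7 CPM, and Itpr1, that receptor, 3825 CPM beside 842 CPM. The exceptions included Itpka, an inositol trisphosphate kinase, which was higher in cortex (53.4 ± 4.45 against 143 ± 16.3 CPM), and Kcnab1, a potassium channel beta subunit, which was alike (interval -0.30 to 0.33).

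The lists of other cerebellar neurons were mixed. Of 9 markers of molecular layer interneurons, 4 were higher in cerebellum, among them Tfap2b, Adarb2 and Gjd2, and 3 in cortex (Sorcs3, Nxph1 and Cacna1e). Of 9 markers of Golgi and unipolar brush cells, 6 were higher in cerebellum and 2 in cortex, Sst and Grm2. Slc6a5, the glycine transporter of glycinergic neurons, was at 35.3, 29.8 and 31.9 CPM in cerebellum and had 3 reads over the 3 cortex libraries, a ratio of 570.2-fold, with an exact 95% counting interval of 195 to 2767. Sst, the somatostatin gene used as a Golgi cell marker, is also made by cortical interneurons and was higher in cortex (2.05 ± 0.845 against 179.5 ± 14.7 CPM). Slc17a6, the vesicular glutamate transporter of cerebellar nuclei and thalamus, was higher in cortex as well (6.26, 11.3 and 9.22 CPM in cerebellum and 22.6, 12.2 and 22.5 CPM in cortex, log2 difference -1.07, adjusted p = 0.00524). It made up 2.33% ± 0.666 of the summed vesicular glutamate transporter TPM in cerebellum and 1.52% ± 0.229 in cortex, beside 97.6% ± 0.672 and 97.8% ± 0.101 for Slc17a7.

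Of 19 markers of cortical excitatory neurons, 17 were called higher in cortex and 1 higher in cerebellum (median -4.89). Nrgn, which encodes the postsynaptic calmodulin-binding protein neurogranin, was measured at 4.59, 2.06 and 3.9 CPM in cerebellum and 1432, 1409 and 1402 CPM in cortex (log2 difference -8.67, SE 0.20, adjusted p = 4.98e-10). Stx1a, a syntaxin of the presynaptic membrane, was at 1.44, 1.24 and 1.87 CPM in cerebellum and 288, 198 and 283 CPM in cortex (log2 difference -7.39, SE 0.11, adjusted p = 9.87e-11). Cux2, a factor of upper layers, was not called (50.2 ± 6.08 against 84.2 ± 49.1 CPM, log2 difference -0.55), and was lowest in the cortex library of mouse 2 (102, 28.6 and 122 CPM). Without that library, in a fit with no block, it was called higher in cortex (-1.19). Of 21 cortical interneuron markers, 14 were higher in cortex and 5 higher in cerebellum (median -5.33). Vip, the vasoactive intestinal peptide of an interneuron class, was at 0.186, 0 and 0.101 CPM in cerebellum and 49.5, 27.8 and 37.5 CPM in cortex (log2 difference -8.56, SE 0.25, adjusted p = 2.18e-09). The 5 members on the cerebellar side included Pvalb, a calcium buffer shared by cortical basket cells, Purkinje cells and molecular layer interneurons (901 ± 87.3 against 81.8 ± 28 CPM), and Reln, an extracellular glycoprotein of granule cells (324 ± 26.4 against 82.4 ± 4.46 CPM). Gad2, which makes GABA in interneurons of both regions, was alike (181 ± 33.8 against 184 ± 12 CPM, interval -0.30 to 0.23).

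**Figure D3:**
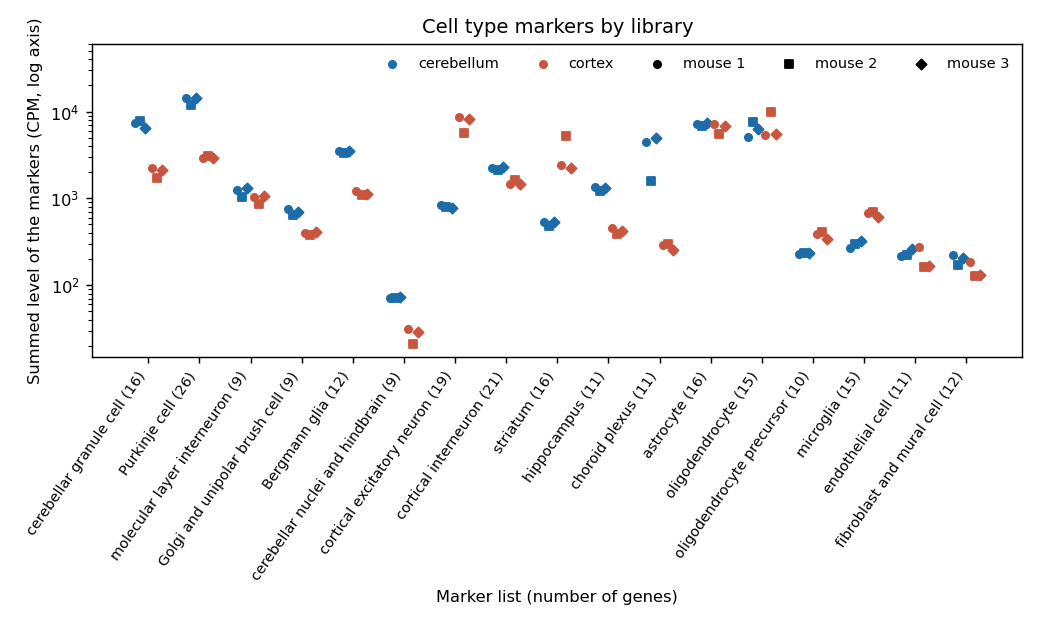
Summed level of each marker list in each control library (CPM, log axis), with cerebellum in blue, cortex in red and a symbol for each mouse. Oligodendrocyte sums overlap between the tissues and are highest in mouse 2, choroid plexus sums are lowest for mouse 2 within cerebellum, and striatum sums are highest for mouse 2 within cortex.

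The subunit makeup of glutamate receptors differed between the regions. Of 18 ionotropic receptor genes, 5 were higher in cerebellum and 8 in cortex (median -0.017, which turned to 0.0059 with upper-quartile factors). Among the NMDA receptor GluN2 subunits, which set channel kinetics and magnesium block, Grin2c held 85.2% ± 2.87 of the summed TPM in cerebellum and 27.1% ± 3.36 in cortex. Grin2b held 1.56% ± 0.43 and 37.2% ± 2.73, and Grin2a 6.8% ± 0.853 and 28.7% ± 1.48. No library of one tissue overlapped with the other for these 3 shares. Grin2b was measured at 24.7, 17 and 24.7 CPM in cerebellum and 419, 273 and 475 CPM in cortex (log2 difference -4.12, SE 0.088, adjusted p = 3.26e-10), and Grin2c at 244, 283 and 219.7 CPM in cerebellum and 69.9, 44.5 and 55.6 CPM in cortex (log2 difference 2.15, SE 0.14, adjusted p = 7.03e-07).

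Among AMPA receptor subunits, the cortical sum was led by Gria1 (37.2% ± 0.645) and Gria2 (33.4% ± 2.02), and the cerebellar sum by Gria1 (44% ± 1.49) and Gria4 (38.1% ± 1.08). Gria2, the subunit that keeps AMPA receptors closed to calcium, made up 11.3% ± 0.672 of the cerebellar sum, at 87.4 ± 5 TPM beside 147 ± 8.01 TPM in cortex. Of the kainate receptor genes, Grik1 was higher in cerebellum (0.95) and Grik5 in cortex (-1.89), and Grik2 and Grik3 were alike. The intervals of those 2 genes were 0.16 to 0.50 and -0.35 to 0.12.

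All 7 metabotropic glutamate receptor genes tested were called, 2 higher in cerebellum and 5 in cortex. Grm4, a presynaptic receptor of parallel fibers, was at 334, 322 and 264 CPM in cerebellum and 36.1, 42 and 29.96 CPM in cortex (log2 difference 3.09, SE 0.084, adjusted p = 1.42e-09). Grm5, a postsynaptic receptor of forebrain neurons, was at 7.89, 6.7 and 7.8 CPM in cerebellum and 224, 225 and 217 CPM in cortex (log2 difference -4.90, SE 0.092, adjusted p = 1.96e-10). Grm4 held 47.1% ± 3.93 and Grm5 0.672% ± 0.0644 of the summed TPM of the 7 genes in cerebellum, and 7.85% ± 1.58 and 28.2% ± 1.66 in cortex.

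GABA-A receptors have a different alpha subunit makeup in granule cells than in forebrain neurons. Gabra6 held 67.1% ± 2.46 of the alpha subunit TPM in cerebellum and 0.0844% ± 0.0967 in cortex. In cortex, Gabra3 held 23.1% ± 2.29, Gabra4 13.3% ± 1.69, Gabra5 12.5% ± 1.65 and Gabra2 12.4% ± 1.09. In cerebellum these 4 held 1.26% ± 0.0899, 1.28% ± 0.148, 0.0901% ± 0.0298 and 2.92% ± 0.148. Gabra5, the subunit of extrasynaptic receptors in forebrain pyramidal cells, was at 1.02, 0.734 and 1.42 CPM in cerebellum and 57.2, 60.1 and 49.7 CPM in cortex (log2 difference -5.72, SE 0.18, adjusted p = 2.88e-09). Gabrd, the extrasynaptic delta subunit that pairs with the Gabra6 product in granule cells, was higher in cerebellum (143 ± 8.9 against 84.9 ± 7.67 CPM). Of all 21 GABA-A, glycine and GABA-B receptor genes in the list, 5 were higher in cerebellum and 10 in cortex, and the GABA-B receptor genes Gabbr1 and Gabbr2 were alike (intervals -0.40 to -0.054 and -0.41 to 0.093).

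**Figure D4:**
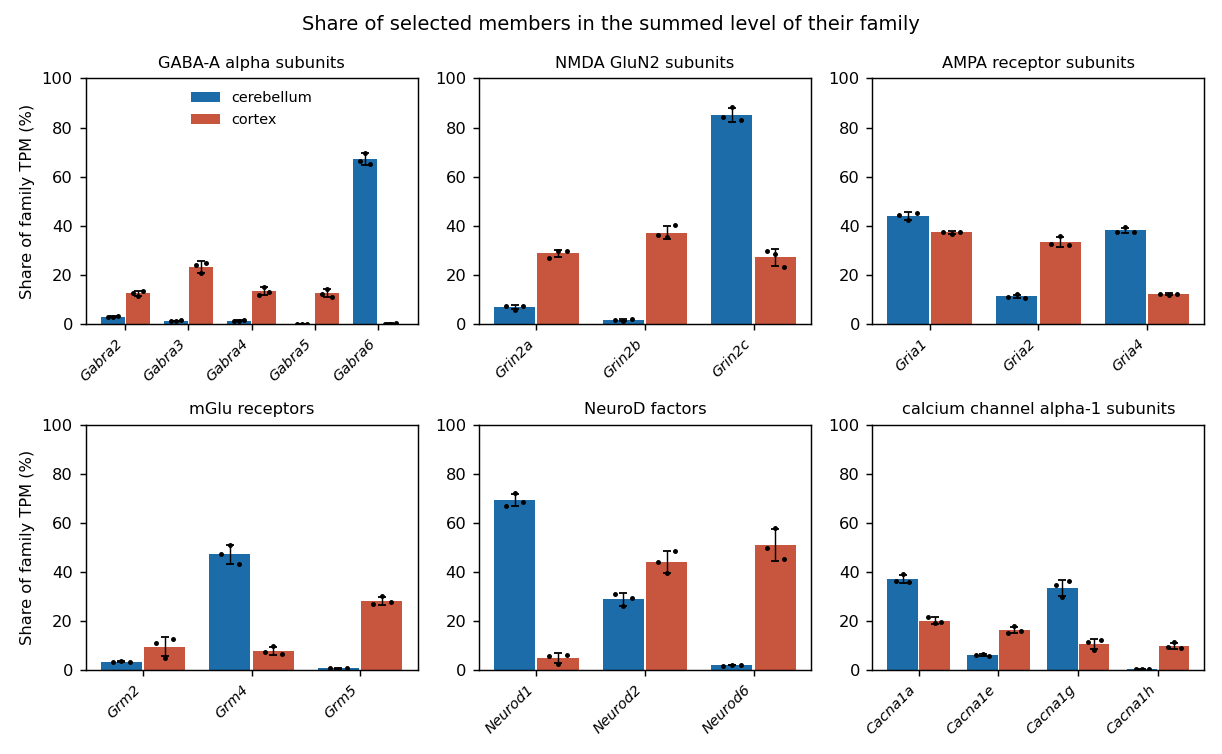
Share of selected members in the summed TPM of their whole family (percent) in cerebellum (blue) and cortex (red), as mean and SD of 3 libraries with each library as a point. Gabra6 (67.1%), Grin2c (85.2%), Grm4 (47.1%) and Neurod1 (69.2%) have the tallest cerebellar bars in their panels.

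Receptors for monoamines, acetylcholine, peptides and purines were mostly cortical. Of 37 monoamine and acetylcholine receptor genes, 29 were higher in cortex and 3 in cerebellum (median -2.44), and of 35 receptor genes for peptides, opioids, cannabinoids and purines 21 and 6 (median -1.69). Counted once each, 50 of 72 were higher in cortex, 38 of them by over 4-fold, which 6.94% of all genes were. Chrm1, a muscarinic acetylcholine receptor of forebrain neurons, was at 0.882, 0.275 and 0.456 CPM in cerebellum and 169, 128 and 174 CPM in cortex (log2 difference -8.17, SE 0.16, adjusted p = 2.5e-10), and Chrm3 differed by -6.27 (SE 0.16). Ntsr1, the neurotensin receptor of corticothalamic neurons, was at 0.0928, 0.0459 and 0.0507 CPM in cerebellum and 7.64, 7.67 and 6.68 CPM in cortex (log2 difference -6.72, SE 0.34, adjusted p = 9.99e-08). Sstr2, a somatostatin receptor, and Tacr1, the receptor of substance P, differed by -6.07 and -5.87.

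Several genes of this group are markers of the striatum and moved with the striatal sum. The dopamine receptor gene Drd1 was at 0.325, 0.138 and 0.405 CPM in cerebellum and 39.95, 102 and 45.5 CPM in cortex, and Drd2 at 0.464, 0.505 and 0.659 CPM in cerebellum and 47.5, 127 and 43.4 CPM in cortex, each highest in the cortex library of mouse 2. The adenosine receptor gene Adora2a was at 1.53, 1.88 and 0.861 CPM in cerebellum and 81.6, 198 and 59.1 CPM in cortex. Without that library, in a fit with no block, the log2 differences were -7.22 for Drd1, -6.41 for Drd2 and -5.63 for Adora2a, against -7.72, -7.02 and -6.25 with it. All 16 striatum markers were called higher in cortex (median -5.57), among them the orphan receptor gene Gpr6.

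Cerebellar exceptions in these 2 lists included Drd4, Chrnb4, Crhr1, Cnr1, Npr1, Ednrb, P2rx4 and P2ry1. Cnr1, the cannabinoid receptor of parallel fiber terminals and interneurons, was at 493, 464 and 495 CPM in cerebellum and 182, 225 and 177 CPM in cortex (log2 difference 1.32, SE 0.098, adjusted p = 1.53e-06). Crhr1, the receptor for corticotropin-releasing hormone, which climbing fibers release, was higher by 1.52 (SE 0.18), and Ednrb, an endothelin receptor of astroglia, by 1.62 (SE 0.082). Adora1, an adenosine receptor, was alike (238 ± 13.4 against 227 ± 10.6 CPM, interval -0.10 to 0.24). Of 23 neuropeptide precursor and granin genes, 21 were higher in cortex and 1 in cerebellum, Nxph4 (median -4.04). Sst was at 2.92, 1.24 and 1.98 CPM in cerebellum and 179, 195 and 165 CPM in cortex (log2 difference -6.46, SE 0.18, adjusted p = 1.73e-09). Tac1 and Pdyn, which encode substance P and dynorphin and are also striatal, differed by -6.74 and -8.20.

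Ion channels split in both directions, with 40 of 139 genes of the sodium, HCN, calcium, potassium and TRP channel lists higher in cerebellum and 65 higher in cortex. These are 28.8% and 46.8%, against 20.0% and 22.1% of all genes tested. Of 79 potassium channel genes, 21 and 41 were called (median -0.52). Among the Kv3 channels, which let neurons fire at high rates, Kcnc2, a member of cortical interneurons, held 0.331% ± 0.0075 of the summed TPM in cerebellum and 20.1% ± 2.36 in cortex. Kcng4, a silent subunit that joins other potassium channels, was at 201, 185 and 215 CPM in cerebellum and 9.73, 6.36 and 7.35 CPM in cortex (log2 difference 4.69, SE 0.11, adjusted p = 7.16e-10). Kcnv1, Kcng1 and Kcnf1, further silent subunits, were higher in cortex, with log2 differences of -9.84, -7.52 and -7.50, as was Kcnj4, an inward rectifier, with -7.77. Kcnv1 was at 0.0928, 0.0917 and 0.152 CPM in cerebellum and 119.7, 94.3 and 109 CPM in cortex. Kcnma1, the large-conductance calcium-activated channel, was alike (interval 0.037 to 0.40). Kcne2 and Kcnj13, the largest potassium channel differences on the cerebellar side, are choroid plexus genes, and their levels of 25.2, 5.69 and 24.8 CPM and 23.9, 5.92 and 20.7 CPM were lowest in mouse 2, as the choroid plexus sum was. Other genes cover 49.1% of the exonic bases of Kcnj13.

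Of 19 sodium, HCN and associated genes, 4 were higher in cerebellum, 6 higher in cortex and 7 alike. These are 21.05%, 31.6% and 36.8%, against 20.0%, 22.1% and 27.4% of all genes tested. Scn1a, the main alpha subunit of fast-spiking neurons, was higher in cerebellum (238 ± 17.6 against 152 ± 16.2 CPM), and Scn2a was alike (interval -0.21 to 0.21). Scn3b was at 3.71, 2.62 and 3.09 CPM in cerebellum and 108, 87.9 and 97.9 CPM in cortex (log2 difference -4.96, SE 0.097, adjusted p = 2.45e-10) and Scn3a at 2.49 and 49.8 CPM. Hcn2, a pacemaker channel that held 75.1% ± 2.38 and 85.7% ± 2.27 of the summed HCN TPM in cerebellum and cortex, was not called (114 ± 5.7 against 151 ± 17.3 CPM).

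Of 23 calcium channel genes, 7 were higher in cerebellum and 13 in cortex. Cacna1a, the P/Q-type channel of Purkinje cells and of most nerve terminals, held 37.1% ± 1.69 of the alpha-1 subunit TPM in cerebellum and 20.1% ± 1.36 in cortex. The T-type channel genes split by member. Cacna1g was higher in cerebellum (322, 232 and 310.3 CPM in cerebellum and 91.8, 48.4 and 101 CPM in cortex, log2 difference 1.89, SE 0.11, adjusted p = 3.17e-07), and Cacna1h in cortex (2.09, 2.38 and 1.98 CPM in cerebellum and 72.2, 64.3 and 72.3 CPM in cortex, log2 difference -5.01, SE 0.12, adjusted p = 5.84e-10). Cacng5 and Cacng3, whose products escort AMPA receptors, differed by 2.71 and -4.08. Of 18 TRP channel genes, 8 were higher in cerebellum and 5 in cortex. The canonical TRP channel genes Trpc6 and Trpc4 were higher in cortex (-2.90 and -2.22).

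Calcium handling genes followed the same division, with 16 of 46 (34.8%) higher in cerebellum and 22 (47.8%) higher in cortex. Over all genes tested, the shares were 20.0% and 22.1%. Atp2a3, a calcium pump of the endoplasmic reticulum, was at 308, 237 and 277 CPM in cerebellum and 6.15, 3.38 and 4.84 CPM in cortex (log2 difference 5.86, SE 0.11, adjusted p = 1.96e-10), while Atp2a2, its widespread relative, was not called (1289 ± 199 against 906 ± 77.2 CPM). The calcium buffers Calb2 (calretinin of granule cells) and Pvalb were higher in cerebellum by 5.28 and 3.50. On the cortical side, Camk2a, the alpha subunit of the calmodulin kinase that supports synaptic plasticity in forebrain neurons, was at 118, 94.4 and 125 CPM in cerebellum and 3778, 1748 and 3530 CPM in cortex (log2 difference -4.68, SE 0.16, adjusted p = 5.33e-09). Within the calmodulin kinases measured by share, Camk2a held 70.3% ± 8.85 of the cortical sum and 10.2% ± 1.5 of the cerebellar sum. Camk4, a kinase of granule cell nuclei, held 28.5% ± 0.218 in cerebellum and 3.53% ± 1.1 in cortex. The pseudokinase gene Camkv and the visinin-like sensor gene Hpcal4 differed by -6.91 and -4.24.

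Signalling through G proteins and cyclic nucleotides was regional as well. Rgs8, a GTPase activator of Purkinje cells, was at 1349, 1218 and 1285 CPM in cerebellum and 125, 133 and 129 CPM in cortex (log2 difference 3.31, SE 0.090, adjusted p = 1.43e-09), and Rgs4 was at 9.65, 11 and 11.4 CPM in cerebellum and 433, 533 and 474 CPM in cortex (log2 difference -5.49, SE 0.093, adjusted p = 1.29e-10). Of 17 genes of this family, 3 were higher in cerebellum and 11 in cortex. Of the G-protein subunits, Gng13, with 51.6% of its exonic bases inside another gene, was higher in cerebellum (2.63), and Gng7, a striatal and cortical subunit, in cortex (-3.94). In the cGMP pathway, the phosphodiesterase gene Pde5a (102 ± 19.6 against 9.2 ± 2.24 CPM), the natriuretic peptide receptor gene Npr1 (19.1 ± 1.11 against 1.96 ± 0.473 CPM) and the kinase gene Prkg1 (46.2 ± 8.51 against 10.8 ± 4.42 CPM) were higher in cerebellum. Pde1a and Pde1b, calmodulin-dependent phosphodiesterases, were higher in cortex, with log2 differences of -6.13 and -4.07. Of all 30 genes of cyclic nucleotide and nitric oxide signalling, 8 were higher in cerebellum and 17 in cortex.

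**Figure D5:**
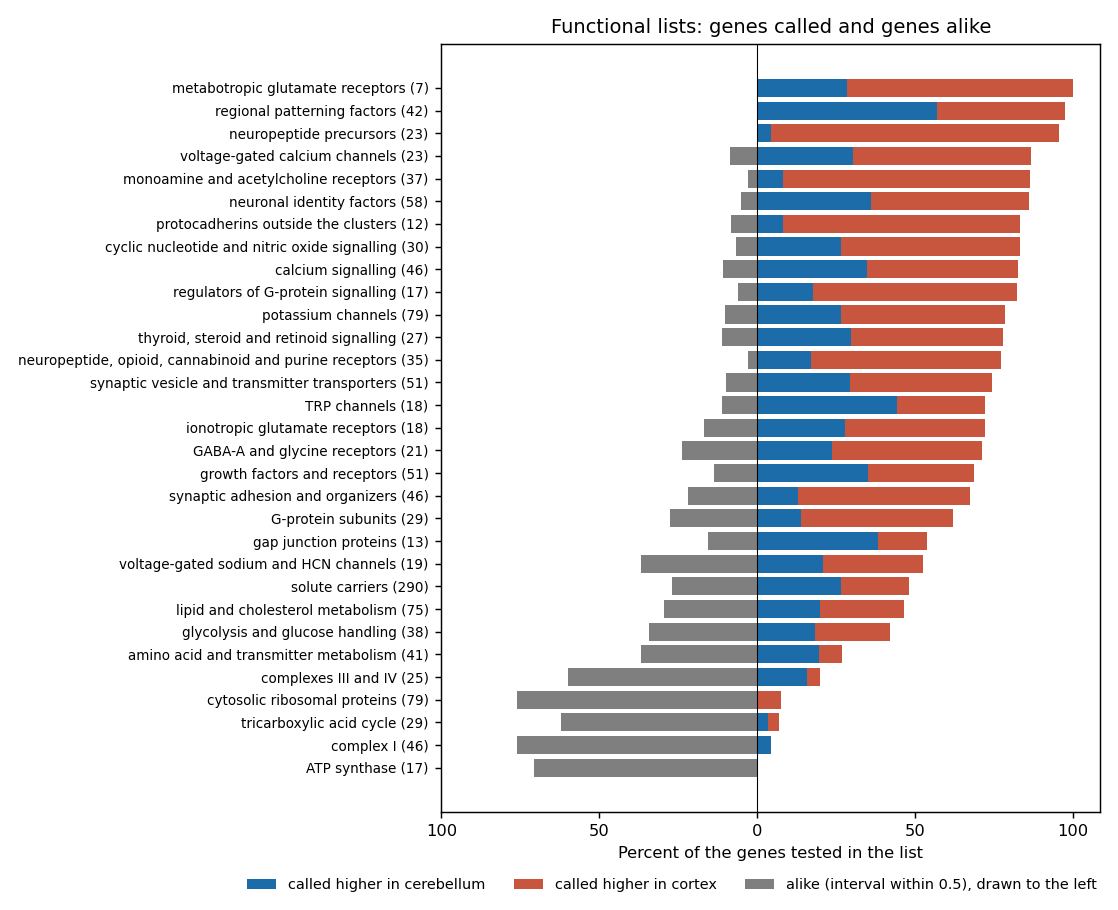
Percent of the genes tested in each functional list (number of genes in brackets) that were called higher in cerebellum (blue) or cortex (red), to the right of 0, and that were alike (grey), to the left. Patterning factors and neuropeptide precursors are among the lists with the most calls, and complex I, ATP synthase and ribosomal proteins are mostly alike.

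Of 46 synaptic adhesion and organizer genes, 6 were higher in cerebellum and 25 in cortex (median -0.61). Against Cbln1 and Cbln3 on the cerebellar side stood Cbln4, their relative of cortical and limbic neurons (0.837 ± 0.24 against 14.4 ± 6.19 CPM), and Nptx2, a pentraxin induced by activity that gathers AMPA receptors (1.07, 0.642 and 1.11 CPM in cerebellum and 94.9, 56.4 and 78.7 CPM in cortex, log2 difference -6.34, SE 0.12, adjusted p = 2.17e-10). Lrrtm1, a postsynaptic adhesion protein, differed by -3.27. The contactin gene Cntn1 was alike (interval -0.031 to 0.29). Of 12 protocadherin genes outside the clusters, 9 were higher in cortex and 1, Pcdh12, in cerebellum, a call lost in 5 of 10 alternative settings.

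In the release machinery and its transporters, 15 of 51 genes (29.4%) were higher in cerebellum and 23 (45.1%) in cortex, against 20.0% and 22.1% of all genes tested. The calcium sensors for fast release differed in makeup. Syt2 held 50.8% ± 0.825 and Syt1 49.2% ± 0.825 of their sum in cerebellum, against 4.79% ± 0.51 and 95.2% ± 0.51 in cortex. Syt2 was at 417, 365 and 376 CPM in cerebellum and 58.4, 62.9 and 67.6 CPM in cortex (log2 difference 2.62, SE 0.091, adjusted p = 6.41e-09). Slc1a6, the glutamate transporter of Purkinje cells, was at 201, 176 and 184 CPM in cerebellum and 6.63, 5.14 and 7.11 CPM in cortex (log2 difference 4.90, SE 0.10, adjusted p = 2.84e-10). The SNARE gene Snap25 was alike, with means of 2401 CPM in cerebellum and 2624 CPM in cortex and an interval of -0.36 to 0.10. Slc12a5, the neuronal chloride exporter, was alike as well (interval -0.40 to -0.024). Slc30a3, the vesicular zinc transporter of cortical neurons, was among the solute carriers with the largest cortical difference (1.95, 1.05 and 2.08 CPM in cerebellum and 118, 54.7 and 126 CPM in cortex, log2 difference -5.86, SE 0.11, adjusted p = 1.82e-10).

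Of 16 astrocyte markers, 8 were higher in cerebellum and 4 in cortex (median 0.50), and the summed level was 7159, 6744 and 7400 CPM and 7174, 5450 and 6767 CPM. The glial glutamate transporters ran in opposite directions. Slc1a3 was at 1478, 1277 and 1478 CPM in cerebellum and 594, 394 and 528 CPM in cortex (log2 difference 1.50, SE 0.095, adjusted p = 5.02e-07), and Slc1a2 at 712, 664 and 720.1 CPM in cerebellum and 2696, 1883 and 2726 CPM in cortex (log2 difference -1.78, SE 0.11, adjusted p = 3.34e-07). The water channel gene Aqp4 was higher in cerebellum (366 ± 32.3 against 82 ± 20.3 CPM), as were S100b (586 ± 67.2 against 154 ± 23.6 CPM) and Agt, the angiotensinogen gene (75 ± 5.88 against 9.34 ± 1.88 CPM). Lhx2, a homeobox factor of telencephalic progenitors, glia and neurons, was at 0.371, 0.0917 and 0.355 CPM in cerebellum and 61.3, 34.3 and 58.5 CPM in cortex. The others called higher in cortex were Glul and Mfge8. Gja1, the main gap junction gene of astrocytes, was not called (205 ± 16.5 against 146 ± 11.7 CPM).

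Of 12 markers of Bergmann glia, the radial astroglia that wrap Purkinje cells, 10 were higher in cerebellum and 2 in cortex, Npy and Etv5 (median 2.07). Npy encodes neuropeptide Y, which cortical interneurons make. Gdf10, a secreted TGF-beta family factor, was at 235, 161 and 236 CPM in cerebellum and 8.78, 8.22 and 7.35 CPM in cortex (log2 difference 4.67, SE 0.13, adjusted p = 1.42e-09). Dao, the enzyme that degrades D-serine, was at 77.4, 73.5 and 78.9 CPM in cerebellum and 0.179, 0.151 and 0.122 CPM in cortex (log2 difference 8.92, SE 0.16, adjusted p = 1.49e-10), and Srr, which makes D-serine, was higher in cortex (59.7 ± 2.52 against 103 ± 8.41 CPM). Vim, an intermediate filament gene, differed by 2.99.

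Oligodendrocyte genes were largely alike. Of 15 markers, 9 were alike against 27.4% of all genes, 1 was higher in cerebellum (Trf) and 3 were higher in cortex (Cldn11, Opalin and Mal). Mbp, which encodes myelin basic protein, had an interval of -0.38 to 0.13. Mbp varied between mice in both tissues, at 1964, 3077 and 2488 CPM in cerebellum and 2185, 4033 and 2224 CPM in cortex, and was highest in mouse 2. Of 10 precursor markers, 8 were higher in cortex and 1, Vcan, in cerebellum (median -0.81). Pdgfra, the growth factor receptor of these cells, was at 29.7, 20.1 and 26.6 CPM in cerebellum and 69.6, 48.4 and 61.8 CPM in cortex (log2 difference -1.24, SE 0.075, adjusted p = 3.71e-07), and Olig1, their helix-loop-helix factor, at 54.9, 66.3 and 63.6 CPM in cerebellum and 124, 154 and 104 CPM in cortex (log2 difference -1.04, SE 0.10, adjusted p = 1.19e-05).

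All 15 microglia markers were called higher in cortex (median -1.43), against 22.1% of all genes tested. The libraries of the tissues did not overlap for any of these markers, which held for 61.8% of all genes tested. The sum of the markers was 271, 296 and 319 CPM in cerebellum and 674, 705 and 606 CPM in cortex. Tmem119, a membrane protein of resident microglia, was at 7.84, 7.57 and 8.77 CPM in cerebellum and 28.1, 25 and 28.5 CPM in cortex (log2 difference -1.75, SE 0.11, adjusted p = 3.53e-07). The largest difference was that of Fcrls, a scavenger receptor-like gene (4.27, 2.98 and 3.95 CPM in cerebellum and 25.6, 21 and 20.4 CPM in cortex, log2 difference -2.58, SE 0.14, adjusted p = 1.32e-07). The complement genes C1qa, C1qb and C1qc, which microglia express and which were named after their values were seen, differed by -1.04, -1.003 and -1.10. Of 11 endothelial markers, Ly6c1 was called higher in cerebellum and Mfsd2a higher in cortex. The Ly6c1 difference of 0.51 was just past the threshold, and its call was lost in 6 of 10 alternative settings, with 0.27 without mouse 3. Of 12 fibroblast and mural cell markers, 5 were higher in cerebellum, among them the meningeal genes Dcn (23.4 ± 3.92 against 6.05 ± 2.73 CPM) and Slc6a13 (11.2 ± 3.92 against 3.96 ± 3.17 CPM), whereas the pericyte genes Rgs5 and Vtn were alike.

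All 11 choroid plexus markers were higher in cerebellum (median 4.93). Ttr, the thyroxine carrier that choroid plexus secretes, was at 2625, 1137 and 3186 CPM in cerebellum and 18.4, 6.36 and 3.98 CPM in cortex (log2 difference 7.94, SE 0.41, adjusted p = 1.01e-07). The cerebellum library of mouse 2 held less than those of mice 1 and 3, and all 3 lay above every cortex library. Thyroid, steroid and retinoid genes outside the choroid plexus differed too. Crym, which binds thyroid hormone in the cytosol, was at 0.51, 0.0917 and 0.0507 CPM in cerebellum and 57, 76.5 and 66.6 CPM in cortex (log2 difference -8.19, SE 0.28, adjusted p = 5.99e-09). Rxrg, a retinoid receptor of striatal and other forebrain neurons, differed by -6.10, and Thrb, a thyroid hormone receptor, by -2.17. Aldh1a1, which oxidizes retinaldehyde, was higher in cerebellum (295, 296 and 307 CPM in cerebellum and 51.9, 55.8 and 43.7 CPM in cortex, log2 difference 2.57, SE 0.092, adjusted p = 8.19e-09). The glucocorticoid receptor gene Nr3c1 was alike (125 ± 3.37 against 124 ± 5.18 CPM, interval -0.14 to 0.16).

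Most genes of core energy metabolism were alike in the 2 regions. Of 155 genes of glycolysis, the tricarboxylic acid cycle, the respiratory chain and ATP synthase, 93 (60%) were alike against 27.4% of all genes, 14 were higher in cerebellum and 11 higher in cortex. For complex I, 35 of 46 genes were alike and 2 were called (Ndufc2 and Ndufv3, 0.55 and 0.53). None of 17 ATP synthase genes was called, with 12 alike, and the list's median was 0.25. Of 79 cytosolic ribosomal protein genes, 60 were alike and 6 were higher in cortex, and none higher in cerebellum. Of the tricarboxylic acid cycle genes, 18 of 29 were alike, and Idh3g and Me3 were called, with log2 differences of 0.53 and -0.95. Isoforms of complex IV known from muscle differed, with Cox6a2 at 0.0464, 0.229 and 0.456 CPM in cerebellum and 5.08, 8.52 and 5.27 CPM in cortex (log2 difference -4.69, SE 0.40, adjusted p = 4.26e-06) and Cox7a1 at 5.15, 6.19 and 5.12 CPM in cerebellum and 1.37, 2.62 and 1.35 CPM in cortex (log2 difference 1.64, SE 0.23, adjusted p = 0.000151). The counts of mitochondrially encoded genes were 0 in every library, so these subunits were not measured.

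The aldolases differed in makeup. Aldoc, the aldolase of Purkinje cells and astroglia, was at 2314, 2006 and 2352 CPM in cerebellum and 976, 826 and 872 CPM in cortex (log2 difference 1.32, SE 0.088, adjusted p = 7.07e-07). It held 61.5% ± 2.7 of the summed aldolase TPM in cerebellum and 32.5% ± 3.19 in cortex, beside 38.5% ± 2.7 and 67.5% ± 3.19 for Aldoa. Of 38 genes of glycolysis and glucose handling, 7 were higher in cerebellum, 9 higher in cortex and 13 alike. These are 18.4%, 23.7% and 34.2%, against 20.0%, 22.1% and 27.4% of all genes tested. Hk2, a hexokinase, was higher in cerebellum (20.3 ± 2.23 against 5.47 ± 1.2 CPM), and Ldha, a lactate dehydrogenase subunit, and Pfkp, a phosphofructokinase, were higher in cortex (151 ± 5.43 against 310.3 ± 19.9 CPM and 218 ± 12.8 against 379 ± 23.1 CPM). Gapdh and Pkm were alike (intervals -0.38 to -0.0029 and -0.18 to 0.20).

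Snx14, the gene mutated in the KO mice of the series, encodes a sorting nexin that acts in lipid handling. Of 75 lipid and cholesterol genes, 15 were higher in cerebellum, 20 in cortex and 22 alike, with a median of -0.073. These are 20%, 26.7% and 29.3% of the list, near the 20.0%, 22.1% and 27.4% of all genes tested. On the cortical side were Cyp46a1, the neuronal enzyme that clears cholesterol from the brain (34.2, 26.9 and 34.9 CPM in cerebellum and 212, 187 and 207 CPM in cortex, log2 difference -2.67, SE 0.078, adjusted p = 2.23e-09), Dgat2, which makes triglycerides (14.6, 16.1 and 15.9 CPM in cerebellum and 60.2, 87.9 and 66 CPM in cortex, log2 difference -2.19, SE 0.099, adjusted p = 4.19e-08), and Mgll, which breaks down monoacylglycerols (-1.66). The fatty acid activating enzyme gene Acsl5 differed by -2.60. On the cerebellar side were Elovl2, an elongase of polyunsaturated fatty acids (38.1 ± 4.08 against 12.8 ± 0.623 CPM), Plin2, which coats lipid droplets (15.4 ± 4.31 against 5.17 ± 1.41 CPM), and the ganglioside enzyme gene St8sia5 (170.1 ± 7.07 against 56 ± 7.63 CPM). Apoe, the main brain apolipoprotein, and the desaturase gene Scd2 were alike (intervals -0.20 to 0.20 and -0.20 to 0.19).

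Of 51 growth factor and receptor genes, 18 (35.3%) were higher in cerebellum and 17 (33.3%) in cortex, against 20.0% and 22.1% of all genes tested. Kit, a receptor tyrosine kinase of molecular layer interneurons, was at 336, 249 and 379.6 CPM in cerebellum and 39.7, 30.5 and 38.4 CPM in cortex (log2 difference 3.14, SE 0.085, adjusted p = 1.42e-09). Gli1, a target of hedgehog signalling, which Purkinje cells send, was at 17.9, 14.4 and 15.4 CPM in cerebellum and 1.85, 2.12 and 2.08 CPM in cortex (log2 difference 2.97, SE 0.16, adjusted p = 1.86e-07). The secreted factor genes Bmp3 and Wnt10a were higher in cortex, with log2 differences of -7.78 and -5.25. Of 41 amino acid and transmitter enzymes, 8 were higher in cerebellum and 3 in cortex, Glul, Srr and Pycr1. These are 19.5% and 7.3% of the list, against 20.0% and 22.1% of all genes tested. Glul, the glutamine synthetase of astrocytes, was at 951 ± 68.7 against 1591 ± 178 CPM. Of 290 solute carrier genes, 77 were higher in cerebellum and 63 in cortex, or 26.6% and 21.7%, against 20.0% and 22.1% of all genes tested. Of 13 gap junction genes, 5 were higher in cerebellum and 2 in cortex, the latter Gjd3 and Panx1.

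The largest differences among well covered genes also held genes outside the groups described so far. On the cerebellar side, Sycp1, a protein of the meiotic chromosome axis, was at 27, 31.1 and 29.5 CPM in cerebellum with no read in cortex, at least 170.4-fold higher. Slc5a1, a sodium-coupled glucose transporter, was at 20.1, 17.7 and 19 CPM in cerebellum with no read in cortex, at least 110.3-fold higher. Crtam, a surface protein of activated T cells, was at 137, 142 and 119 CPM in cerebellum and had 3 reads over the cortex libraries, a ratio of 2347-fold, with an exact 95% counting interval of 803 to 11390. Cnpy1, a regulator of fibroblast growth factor receptor signalling at the midbrain-hindbrain boundary, differed by 10.92 (SE 0.15). On the cortical side, Tmem215, Ano2 and Ido1 were among the genes with no read in cerebellum. Tmem215, a transmembrane protein, was at 15.9, 5.6 and 15.5 CPM in cortex, at least 86.2-fold higher. Ano2, a calcium-activated chloride channel, was at 4.36, 12.3 and 4.53 CPM, at least 49.4-fold higher, and Ido1, which starts tryptophan breakdown, at 3.82, 10.2 and 2.76 CPM, at least 39.1-fold higher. Ano2 and Ido1 were highest in the cortex library of mouse 2, as the striatal sum was, and Tmem215 was lowest in it. Outside the annotated protein-coding genes, large differences were those of the noncoding genes Gm39465, Lhx1os and Gm13944 in cerebellum and Gm40518 in cortex, and in cortex also of Gm49593, which the annotation lists as neither coding nor noncoding, and of Trbc2, a T-cell receptor constant segment. Lhx1os lies beside Lhx1 on the other strand, and their exons do not overlap. With genes at 0 in a tissue set to their floor, every list median given here was the same as the fitted one.

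Among the genes with the highest levels of those alike were the myelin gene Mbp, the release gene Snap25, the calmodulin gene Calm2 and the nuclear noncoding RNA Malat1. Calm2 was at 1661, 1992 and 1685 CPM in cerebellum and 1897, 2425 and 1762 CPM in cortex (interval -0.38 to 0.018), and its levels overlapped between the tissues. Malat1 had an interval of -0.43 to 0.019.

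Fitted tissue differences of these genes were also available from other animals. In the 2 KO mice of the series, which share no library with the controls, the fitted tissue difference had the same sign for 98.6% of the 3815 genes called higher in cerebellum that could be fitted there, and for 98.6% of the 4187 called higher in cortex. For genes over 4-fold apart, this was so for 724 of 724 and 1273 of 1276. The median log2 difference of genes called higher in cerebellum was 1.01 in controls and 0.90 in KO mice, and that of genes called higher in cortex -1.28 and -1.16. These genes were chosen by their differences in the controls, which can enlarge the control medians. The medians therefore do not show a smaller tissue difference in KO mice, and no same-sign share over all genes is given here.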

How the data were processed

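Total RNA was extracted with TRIzol and sequenced as strand-specific paired-end libraries. Per the study's methods and processing notes, the authors aligned reads with STAR 2.7.3a and counted them with featureCounts 2.0.1 without strand, counting a read for every gene it overlaps and leaving out multi-mapped reads, so paralogs can be undercounted and overlapping genes share reads. The deposited values are raw counts per gene. Of 81881 entries, 26345 that name no gene (26248 numbered entries and 97 spike-ins, 0.160 to 0.926% of counts) were left out. Names and GRCm38 coordinates came from GENCODE release M21. CPM were scaled by TMM factors, and TPM used the deposited gene lengths.

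Genes were filtered with edgeR's filterByExpr (minimum count 10) and tested with edgeR 4.0.16 (R 4.3.3) by the quasi-likelihood F test with terms for animal and tissue, in the 6 control libraries. P-values were adjusted by Benjamini-Hochberg over all 19416 genes, and every adjusted p given is from this test unless named otherwise. The script was tested on simulated data. Pairing follows the animal number. Deviations from the tissue means correlated at 0.209, 0.370 and 0.159 within mice 1, 2 and 3, and between -0.261 and 0.137 for the 6 pairs of libraries from different mice. The animals are separate mice, 1 library per tissue. No pair of libraries agreed within sampling noise. Differences between the KO mice and controls in the tissue difference were tested in all 10 libraries. Counts limit precision for genes near 0, where a floor of 3 counts per library or an exact 95% counting interval is given, which cover counting error only. Alternatives were no animal block, DESeq2 1.42.0 size factors (RLE) and upper-quartile factors, no filter, all 10 libraries, DESeq2's own test, and fits without each animal or without 1 cortex library, the last chosen after its striatal markers were seen.

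Members and lists were chosen with earlier results of these data known. Genes named were the listed reference genes, the largest differences in each direction over all genes and within each list, the highest uncalled genes of each list, and members of receptor and channel families. The sets given as named after their values were seen, Dlx1, Dlx2, Meis2, Npas4, Egr1, Junb, Nr4a1, Fos, and members named to complete a count of 5 or fewer fall outside this rule. Some genes that the rule names are not reported here.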

Additional observations from a re-analysis of the deposited data

Results flagged for a closer look

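The tissue difference of 26 genes named above also differed between the 2 KO mice and the 3 controls, which is what brought them here. The test was the tissue by genotype term of an edgeR quasi-likelihood fit to all 10 libraries, adjusted over 20614 genes, of which 128 passed. Values are the KO minus the control tissue difference on the log2 scale, so a negative value means that the cerebellum stood lower against the cortex in KO mice. With 2 KO mice, 1 animal carries much weight, and no cause was tested.

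Among genes of Purkinje cells and their signalling, the value was -1.70 for Car8, -1.47 for Atp2a3, -1.41 for Prkg1, -1.22 for Pde5a, -1.15 for Cacna1g, -1.12 for Kcng4, -1.02 for Itpka and -1.01 for Itpr1. It was -0.94 for Grik1, -0.93 for Pcp2, -0.89 for Calb1, -0.76 for Rgs8, -0.72 for Rora and -0.69 for Kcnma1. Grm4, of parallel fibers, had 0.67.

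Among forebrain genes, the value was -1.34 for Camk2a, -1.17 for Npy, 0.89 for Grm5, 1.12 for Camkv, 1.42 for Kcnf1 and 1.44 for Gng7. The striatal receptor genes had 2.85 for Adora2a and 4.13 for Drd2, and in the controls both were highest in the cortex library of mouse 2. Among glial genes, it was 0.84 for C1qa, 1.27 for Fcrls and 1.51 for Agt.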

How the results depend on the processing

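The counts of genes called stayed within 1.5 times those given above under every alternative run. Without the animal block, that is, without the pairing, 3700 genes were higher in cerebellum and 4171 in cortex, and 7825 calls were shared with the paired fit. Across the other full-sample alternatives the counts were 3273 to 4328 and 3934 to 4739, the lower values from DESeq2 and the higher ones without a filter. Leaving out 1 mouse gave 3515 to 3906 and 4011 to 4420, over 4-fold 799 to 825 and 1379 to 1439, and 3946 to 5140 genes alike. Leaving out the cortex library of mouse 2 alone gave 3754 and 4450. No gene called above changed direction, and 12 named genes that were not called crossed 0 in at least 1 setting. Of 233 named genes, 19 lost or gained a call in at least 1 setting. Without mouse 3, Slc17a6 (-0.96) and Grm2 (-0.63) lost theirs, and without the cortex library of mouse 2 Nr4a1 (-1.28), Cldn11, Nfic and Nfix did. Drd4, Pcdh12, Ly6c1, Pycr1, Gjd3, Idh3g, Ndufc2, Ndufv3 and Nfib lost theirs in at least 1 other setting, and Atp2a2, Gja1 and Hcn2 gained one. Of 48 list medians, 3 near 0 changed sign. That of ionotropic glutamate receptors was 0.0059 with upper-quartile factors, 1.42e-05 without a filter and 0.0059 without mouse 2, that of molecular layer interneurons 0.15 without mouse 2 and 0.00067 without its cortex library alone, and that of oligodendrocytes 0.16 without that library. The largest shift of a median was 0.58. Without the cortex library of mouse 2, 18 of the 48 medians moved by at least the SD of the list's median over the 3 mice. This held for 6, 7 and 6 medians without mouse 1, 2 or 3, and for at most 2 in each other setting.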
